A study of Mus musculus with 21 samples.

Results

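The comparison is that of small-intestinal organoids treated with compound 2, an inhibitor of the Mediator kinases CDK8 and CDK19, with organoids given vehicle, on 6 of the 21 arrays of a mouse Agilent series. The members were chosen by title: the 3 arrays of compound 2 (2 µM for 24 h, letters A, B and C) and the 3 vehicle arrays of the same letters and the same 24 h. Organoids are epithelial cultures that grow from crypts in Matrigel, here with EGF, Noggin and R-spondin 1. The model was built in KH2 embryonic stem cells. The cells of all 6 arrays carried the M2-rtTA transactivator, driven by the ROSA26 promoter, and a Tet-O transgene for human ΔN89 beta-catenin, a form cut at its N terminus and given a myc tag there. All were kept in doxycycline, so that mutant beta-catenin was switched on in the vehicle cultures too. Cells without the transgene were not analysed here, so every difference is one within doxycycline-treated transgenic epithelium. Each array held Cy3-labelled organoid RNA and Cy5-labelled Universal Mouse Reference RNA. Values of an array are log2 of sample over reference, a level that can be set against other arrays but not against other genes. Changes are log2 compound 2 minus vehicle ± SE from limma, with p-values adjusted over 21487 genes, and a gene passed at an adjusted p under 0.05.

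CDK8 and its paralogue CDK19 bind cyclin C and, through Med12 and Med13, dock onto the Mediator complex, which links transcription factors to RNA polymerase II. The module is known both to restrain and to assist transcription and has been studied as a coactivator of beta-catenin. Beta-catenin acts in crypts through TCF/LEF factors and keeps stem and progenitor cells dividing. The intestinal epithelium also clears foreign compounds: P450 enzymes and reductases modify them, glutathione and glucuronic acid are attached to them, and NRF2 (Nfe2l2) is a regulator of many of these genes.

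All 6 epithelial, 10 enterocyte, 6 goblet and 4 Paneth cell marker genes stood well above background on all 6 arrays. So did 5 of 6 fibroblast, 4 of 5 leukocyte and 2 of 3 endothelial marker genes, and their part in the results was not tested. Of the stem, enteroendocrine and tuft cell markers only 2 of 4, 3 of 7 and 2 of 3 did. The stem cell marker Olfm4 was well above background on no array and Lgr5 on 5 of 6. The median level of the fibroblast markers was -6.11 with vehicle and -6.09 with compound 2, that of leukocytes -1.32 and -1.19 and that of endothelium -0.17 and -0.07. In the sample channel 49.5% to 51.5% of spots were well above background on the 6 arrays. Any 2 of the 6 arrays correlated at 0.978 to 0.994 across genes. The number of arrays limits the precision. The labels do not say whether letters are separate cultures or animals, so p-values reflect only how far arrays scatter. That scatter was taken from the fit to all arrays of the series, not from these 6 alone. In a bulk sample, fewer cells of a type and less RNA per cell cannot be told apart.

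Compound 2 changed 1120 of 21487 genes (5.21%), 697 upward (3.24%) and 423 downward (1.97%). The median change was 0.54 among the genes that rose and -0.43 among those that fell, and 88 rose and 24 fell at least 2-fold. For 1117 of the 1120 the sign was the same in letters A, B and C, which held for 50.5% of all genes. The compound 2 and vehicle arrays did not overlap for 1103 of the 1120. Among all genes tested, 13.9% had all compound 2 arrays above all vehicle arrays and 12% had them all below. The fit held all 21 arrays, with a term for the letter set (A to C or D to G). With the letter as a block in its place, so that arrays of the same letter are compared, the test called 3694 genes (17.2%), 1998 higher (9.3%) and 1696 lower (7.89%). Leaving out compound 2 A brought the count to 539, compound 2 C to 592, vehicle A to 619 and vehicle C to 715. Letters A and B lay on 1 slide and letter C on another, and the 4 arrays of the first slide alone gave 21 genes. Rising genes made up 62.2% of the calls, but 48.6% with Agilent's own log ratio, 51.9% with the series matrix values and 51.1% with Cy3 alone, so that the excess of rises depends on the normalisation. The reference channel by itself, which should not differ, gave 21 passing genes, 4 of them among the 1120. With the letter as a block it gave 83.

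The genes with the largest rises were Cbr3, Saa2, Gstm1, Cyp3a41b, Spaca3, Ugt2b37, Gstm4, Mcm6, Tex12, Smoc2, Ces3a and Slc17a9. Ces3a (1.68 ± 0.48, adjusted p = 0.048) lost its call in 11 of 20 alternative runs, where its change was as low as 0.29. Spaca3 (1.98 ± 0.24) lost its call in 3 of 20, with a lowest change of 0.88. The largest falls were those of Lect2, Tnfrsf19, Kcnq1, Zfp503, Svop, Cyp2c70, Sort1, C2, Radx, Rnf43, Tmem53 and Tfpi2.

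**Figure D1:**
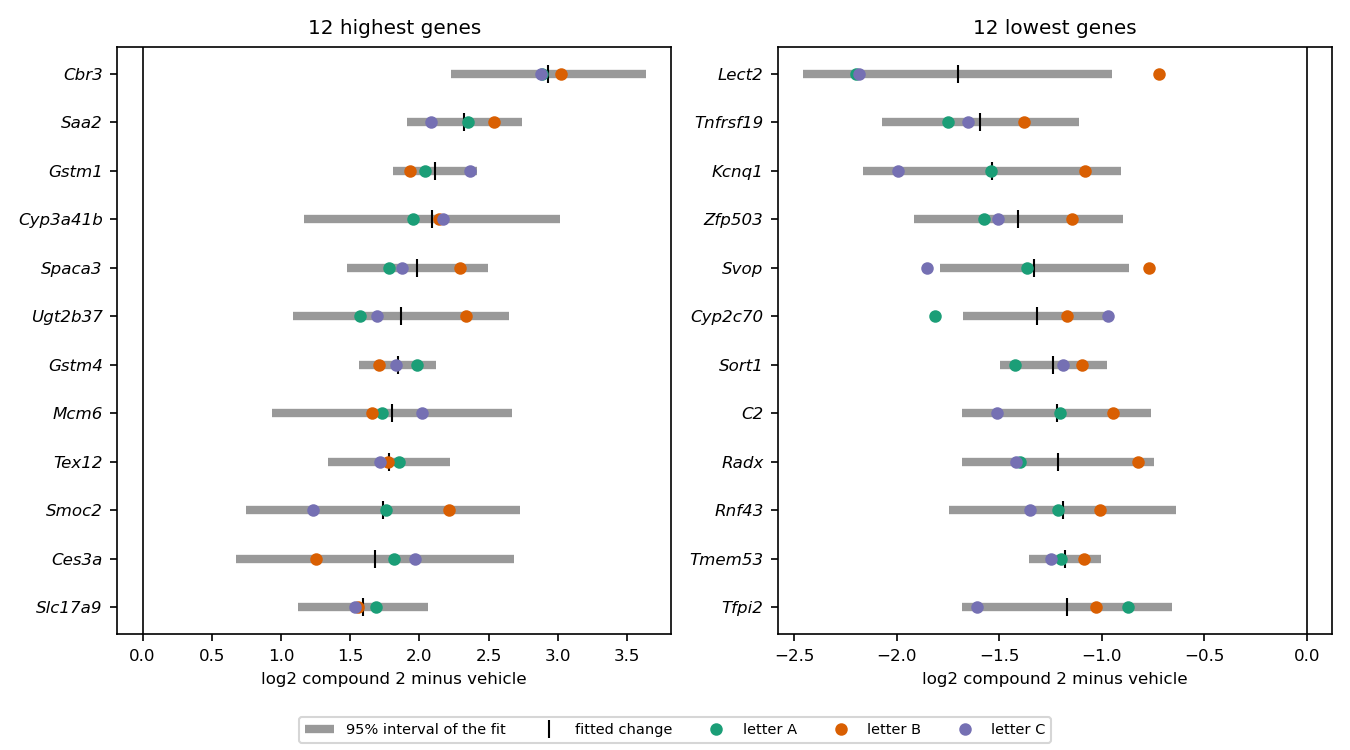
Log2 change with compound 2 (x axis) of the 12 genes with the largest rises (left) and the 12 with the largest falls (right) among passing genes with a plain symbol. Coloured points are the compound 2 minus vehicle difference of letters A, B and C, the black mark the fitted change and the grey bar its 95% interval; Cbr3 lies near 3 in every letter, and Lect2 is nearer 0 in letter B than in A and C.

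Enzymes that reduce and conjugate foreign compounds were among the genes that rose. Over the 8 lists of detoxification genes (145 genes tested, each counted once), 35 rose and 2 fell, against 3.24% and 1.97% of all genes. The fit with a letter block gave 57 and 8, against 9.3% and 7.89% of all genes. The number that rose was 22 to 26 when 1 array was left out, with the lowest value without compound 2 A, and 17 with Agilent's log ratio. On the slide of letters A and B alone, 2 rose.

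Cbr3, a carbonyl reductase (probe at chr16:93691120-93691179, mm9), had the largest change of all. It read -1.89, -2.95 and -2.16 with vehicle in letters A, B and C, and 1.00, 0.08 and 0.72 with compound 2. Letter B was the lowest of each group, and the groups were far apart. The change was 2.93 ± 0.34 (adjusted p = 5.01e-05). Its neighbour Cbr1, the related reductase of carbonyl compounds, read 3.85, 3.76 and 3.94 with vehicle and 4.58, 4.50 and 4.60 with compound 2. Every compound 2 array of Cbr1 lay above every vehicle array, and the change was 0.71 ± 0.08 (adjusted p = 7.02e-05). The aldo-keto reductases Akr1c12 and Akr1c13 rose by 0.65 ± 0.11 and 0.51 ± 0.09. Of the 16 reductases tested 6 rose and 1, Cbr4, fell (-0.55, chosen after its value was seen). Their median was 0.17, against 0.00 for all genes. Without the set term, the Cbr3 change was 1.28 and did not pass.

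Of 7 mu-class glutathione transferases, which attach glutathione to electrophiles, 3 rose, Gstm1, Gstm4 and Gstm2, and the other 4 did not pass (-0.13 to 0.30). Gstm1 read 1.92, 1.93 and 1.71 with vehicle and 3.96, 3.86 and 4.07 with compound 2, a change of 2.11 ± 0.15 (adjusted p = 1.28e-07). Gstm4 read 2.97, 3.08 and 3.09 with vehicle and 4.96, 4.79 and 4.93 with compound 2, a change of 1.84 ± 0.13. Gstm2 read 0.85, 0.95 and 0.78 with vehicle and 1.98, 1.85 and 1.80 with compound 2, a change of 1.02 ± 0.10. In all 3 genes the spread within a group was small beside the gap between the groups, and the calls held without any 1 array. A second Gstm1 probe gave 1.98, while a second Gstm4 probe gave 0.50, so the size for Gstm4 depends on the probe. Gsta3, an alpha-class transferase, rose by 0.81 ± 0.18, a call that was lost without compound 2 C or vehicle B (adjusted p up to 0.078). Of 23 transferases 6 rose and none fell, with a median of 0.14.

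Of the 22 genes listed as NRF2 targets 8 rose and none fell, with a median of 0.28. Nfe2l2 itself read 1.52, 1.61 and 1.48 with vehicle and 2.37, 2.16 and 2.25 with compound 2, and rose by 0.73 ± 0.13 (adjusted p = 0.0025). Gclc, the catalytic subunit of the first enzyme of glutathione synthesis, read 0.75, 0.95 and 0.70 with vehicle and 1.71, 1.67 and 2.11 with compound 2, and rose by 1.03 ± 0.19 (adjusted p = 0.00393). Osgin1, a growth inhibitor induced by oxidative stress, rose by 0.82 ± 0.16. In each of these 3 genes the groups did not overlap. Nqo1, the quinone reductase often used as a readout of NRF2, read 0.12, -0.37 and 0.29 with vehicle and 0.80, 0.37 and 0.93 with compound 2. Its letters ran in parallel, letter B lowest in both groups, and it rose by 0.69 ± 0.17 (adjusted p = 0.0247). The Nqo1 call was lost without compound 2 A, compound 2 C or vehicle B (adjusted p up to 0.12) and turned to -0.35 without the set term. Other textbook targets did not pass: Hmox1 (0.10), Srxn1 (0.27), Slc7a11 (0.30), Txnrd1 (-0.02) and Prdx1 (-0.46, adjusted p = 0.0724), named here after their values were seen.

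The pentose phosphate enzymes G6pdx and Pgd, which supply the NADPH used by these reductases, rose by 0.57 ± 0.08 and 0.32 ± 0.07. They were the 2 of 9 listed NADPH-producing enzymes that passed, and 4 passed with the letter as a block. Aldh1a1, which oxidises retinal and other aldehydes, rose by 0.83 ± 0.12, and Aldh1a7 by 0.27 ± 0.08. The Aldh1a7 call was lost without any 1 array except vehicle B (adjusted p up to 0.20). Of 10 aldehyde dehydrogenases 2 rose, and 5 with the block.

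Glucuronidation, sulfation and epoxide hydrolysis had the largest share of risers of the 33 lists, 7 of 17 genes with none lower (12 with the letter as a block), and a median of 0.52. That median was 0.25 with Agilent's log ratio, 0.23 in the series matrix and 0.33 with Cy3 alone. Ugdh, which makes the UDP-glucuronic acid that all glucuronyltransferases use, read 1.84, 2.03 and 1.86 with vehicle and 2.42, 2.57 and 2.72 with compound 2, and rose by 0.66 ± 0.12 (adjusted p = 0.00276). Ugt2b36 and Ugt1a6b, both glucuronyltransferases, rose by 0.55 ± 0.11 each. Ugt2b5, another of them, read 7.92, 6.60 and 7.69 with vehicle and 9.00, 8.83 and 9.03 with compound 2. The low vehicle array of letter B widened its change, 1.55 ± 0.29 (adjusted p = 0.00327). That value rests on the processing, since Agilent's log ratio gave -0.14 and the series matrix -0.12. Ugt2b37, with the sixth largest rise (1.87 ± 0.37), gave 0.38 and 0.12 under the same alternatives and did not pass. Cyp3a41b, a P450 of the drug-metabolising 3A family, rose by 2.09 ± 0.44 (5.20, 4.57 and 4.90 with vehicle, 7.15, 6.71 and 7.07 with compound 2), and these alternatives gave 1.44 and 0.61, neither passing.

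The probes of such families are close to each other, which bears on how far 2 members can be told apart. The array's probes for Ugt2b5 and Ugt2b37 match in 46 of 55 overlapping bases (83.6%), and those for Cyp3a41b and Cyp3a44 in 46 of 53 (86.8%). The 30-base stretches below are the most alike of each pair, printed from the deposited probe sequences, with the bases that differ in capitals.
Ugt2b5 probe: aactttcagcctcattctTatttatgaAcc
Ugt2b37 probe: aactttcagcctcattctAatttatgaGcc
Cyp3a41b probe: cactgagctttctcagtgtctgtAcaGgtt
Cyp3a44 probe: cactgagctttctcagtgtctgtGcaAgtt
Binding of 1 member's RNA to the other's probe was not tested, so these families are reported as uncertain between members. The probes of Saa1 and Saa2, Gstm1 and Gstm4, and Cbr1 and Cbr3 were not alike. Probes were compared only with each other and not with the other member's RNA, so this does not show that these pairs can be told apart.

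Of the 39 P450 genes tested from the list for families 1 to 4, 3 rose and 1 fell, with a median of 0.13 (0.08 with Cy3 alone). With the letter as a block 8 rose and 3 fell. The list does not hold every member of these families. Cyp3a41b, Cyp3a59 (1.06), Cyp2d13 (0.97) and Cyp2d40 (0.83), picked after their values were seen, also rose and are outside it. Cyp2c55, an intestinal member of the 2C family, read 2.85, 3.17 and 2.88 with vehicle and 4.75, 4.27 and 4.46 with compound 2, a rise of 1.53 ± 0.24 (adjusted p = 0.000783). Cyp2c70, which hydroxylates bile acids, went the other way: 2.74, 2.27 and 2.41 with vehicle, 0.93, 1.10 and 1.44 with compound 2, a change of -1.32 ± 0.17. Abcc3, a pump for conjugates, was the 1 of 9 efflux transporters that rose (0.81 ± 0.21). The Abcc3 call was lost without compound 2 A, compound 2 C, vehicle A or vehicle B (adjusted p up to 0.14).

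**Figure D2:**
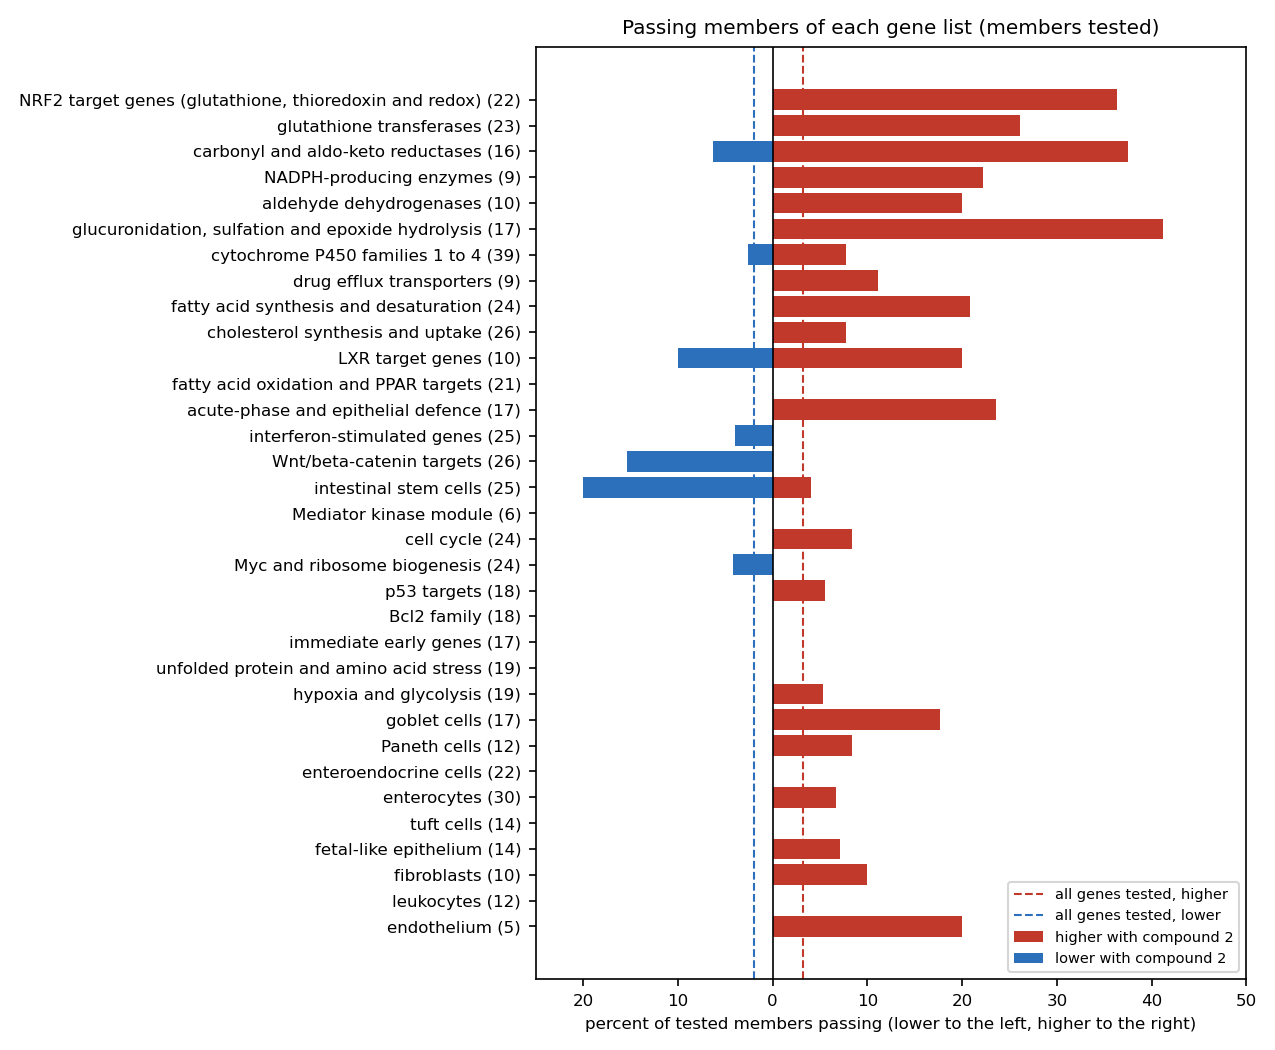
Percent of the tested members of each gene list that rose (red, to the right) or fell (blue, to the left) with compound 2, with the number tested in brackets and dashed lines at the shares of all genes, 3.24% higher and 1.97% lower. The detoxification lists at the top lie to the right, and the Wnt target and stem cell lists to the left.

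Promoters were read to see whether letters of known response elements mark these genes. Of the genes tested 11688 had a promoter entry in the RefSeq table (GRCm38.p6, 250 bases before to 50 after each start), 735 of them passing. The core of the antioxidant response element bound by NRF2, TGACNNNGC on either strand, stood in 16.6% of promoters of genes that rose, 14.3% of those that fell and 16.4% of all genes tested. It stood in 12.4% of all promoters of the table. Among detoxification genes that rose it was found in 6 of 31, or 19.4%. The xenobiotic response element core TNGCGTG was found in 8.76% of risers against 8.73% of all genes tested, so neither element set the risers apart in this window. The sterol response element was found in none of the passing genes and in 0.222% of all. Ugdh holds the antioxidant core at 132 and, on the other strand, at 94 bases before its start, and Gsta3 holds it at 121. The 250 bases before the start are shown for both with the match in capitals, Ugdh from chr5:65435843-65436092 (minus strand) and Gsta3 from chr1:21240335-21240584 (plus strand).
Ugdh: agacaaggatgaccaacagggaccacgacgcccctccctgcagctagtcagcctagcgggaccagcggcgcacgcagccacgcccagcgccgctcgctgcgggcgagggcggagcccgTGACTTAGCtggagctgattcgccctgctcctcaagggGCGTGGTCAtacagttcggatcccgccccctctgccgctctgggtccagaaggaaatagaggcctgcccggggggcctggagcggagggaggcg
Gsta3: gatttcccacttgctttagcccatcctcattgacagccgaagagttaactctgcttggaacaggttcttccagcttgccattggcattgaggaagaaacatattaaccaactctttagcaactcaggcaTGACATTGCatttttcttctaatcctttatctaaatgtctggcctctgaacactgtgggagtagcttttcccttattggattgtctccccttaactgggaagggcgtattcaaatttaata
The windows of Cbr3 and Gstm1 hold no match, which says only that these letters are not there. A match is a description of the letters, not a measured site.

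Some genes of fatty acid synthesis rose as well. For the counts of this paragraph, 3.24% of all genes rose and 1.97% fell, and 9.3% and 7.89% did with the letter as a block. Scd1, the desaturase that makes oleate, read 3.01, 2.71 and 2.88 with vehicle and 4.41, 4.28 and 4.23 with compound 2, a rise of 1.44 ± 0.10 (adjusted p = 1.28e-07). The 3 arrays of each group lay close together, and the call held in every alternative run, the slide of letters A and B alone included (adjusted p = 0.0427). In the reference channel alone Scd1 also passed, at 0.66 (adjusted p = 0.00117), the 1 named gene to do so, and its part in the ratio was not tested. The rise was 2.05 with Cy3 alone, which does not use that channel. Elovl6, which elongates palmitate, rose by 0.67 ± 0.08, and Gpam, which starts glycerolipid synthesis, by 0.73 ± 0.11. Acsl4, which activates arachidonate, rose by 0.44 ± 0.11, but did not pass without compound 2 A, compound 2 C, vehicle B or vehicle C (adjusted p up to 0.12), and its sign turned without the set term (-0.14). In all 5 of 24 listed genes rose and none fell, with a median of 0.25, and 10 rose with the letter as a block. Of 26 genes of cholesterol synthesis and uptake 2 rose, Stard4, a sterol carrier (0.48 ± 0.10), and Mvd of the mevalonate pathway (0.29 ± 0.07). With the block 7 did, and the median was 0.16. Mvd did not pass without compound 2 A, vehicle A or vehicle B (adjusted p up to 0.13). Among 10 LXR targets Scd1 and Abcg8, a sterol exporter (0.64 ± 0.18), rose, and Nr1h3, LXR alpha itself, fell (-0.31 ± 0.09). The Abcg8 call was lost without any 1 of the 6 arrays and that of Nr1h3 without any but compound 2 B (adjusted p up to 0.16 for both). None of 21 genes of fatty acid oxidation passed, while 7 rose and 2 fell with the block.

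The acute-phase and epithelial defence list had 4 risers among 17 genes (7 with the letter as a block) and no fallers, with a median of 0.24. Among all genes 3.24% rose, and 9.3% with the block. Saa2, a serum amyloid A protein (probe at chr7:54009622-54009681, mm9), read -0.15, 0.21 and -0.20 with vehicle, where the probe was not well above background on any array, and 2.20, 2.75 and 1.89 with compound 2. The fitted change was 2.33 ± 0.20 (adjusted p = 1.55e-06), which as a bound is at least 3.65-fold higher. The bound is the compound 2 mean against the vehicle arrays' lowest signal well above background, or the probe's own where higher. Its neighbour Saa1 read -2.29, -2.22 and -2.36 with vehicle and -1.26, -1.06 and -1.22 with compound 2, a rise of 1.11 ± 0.10. Ccl28, a mucosal chemokine, read 1.33, 1.08 and 1.19 with vehicle and 3.16, 1.89 and 2.93 with compound 2, so letter B responded least. Its change of 1.46 ± 0.31 was no longer called without compound 2 A or C (adjusted p up to 0.063). Lcn2, which binds bacterial siderophores, rose by 0.58 ± 0.15, a call lost without compound 2 A, compound 2 C, vehicle A or vehicle B (adjusted p up to 0.13).

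Among interferon-stimulated genes 1 of 25, Mx2, fell (-0.91 ± 0.24), with a list median of -0.16, or -0.34 with Agilent's log ratio and -0.33 in the series matrix. With the letter as a block 9 fell and 1 rose. Among all genes 1.97% fell, and with the block 7.89% fell and 9.3% rose. The Mx2 call was lost without compound 2 A, compound 2 C, vehicle A or vehicle B (adjusted p up to 0.16).

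The RNAs of the targeted kinases did not pass in the comparison with vehicle. Cdk8 read -0.01, 0.16 and 0.07 with vehicle and 0.29, 0.41 and 0.26 with compound 2, which did not overlap, but the change of 0.25 ± 0.09 did not pass (adjusted p = 0.123). Other Cdk8 probes gave 0.001 and 0.17 and did not pass, so the gap depends on the probe. Cdk19 read -1.04, -0.84 and -0.84 with vehicle and -1.21, -1.30 and -1.17 with compound 2, a change of -0.32 ± 0.10 (adjusted p = 0.0723). Both passed in the fit with a letter block, at 0.0179 and 0.013, Cdk8 also without the set term (0.02) and Cdk19 also without letter F (0.0493). Ccnc (-0.05), Med12 (-0.09) and Med13 (-0.03) did not pass in either fit. An array for RNA measures no kinase activity.

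Several Wnt targets and stem cell genes fell. Of 26 Wnt/beta-catenin targets 4 fell and none rose, with a median of -0.04 (-0.10 with Agilent's log ratio). Of 25 intestinal stem cell genes 5 fell and 1 rose, with a median of -0.14, which was -0.22 with Agilent's log ratio and -0.42 in the series matrix, and 18 of 25 lay below 0. The lists overlap: together they hold 42 genes, of which 6 fell and 1 rose, against 1.97% and 3.24% of all genes. With the letter as a block 10 fell and 2 rose, against 7.89% and 9.3% of all genes. The number that fell was 3 without compound 2 A, compound 2 C or vehicle B.

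Tnfrsf19, a TNF receptor family member of stem cells, read 0.20, 0.23 and 0.14 with vehicle and -1.55, -1.15 and -1.51 with compound 2. The 3 vehicle arrays lay within a narrow band far above the others, and the change was -1.59 ± 0.23 (adjusted p = 0.000436), a call that held without any 1 array. A second Tnfrsf19 probe gave -0.43. Rnf43, a ubiquitin ligase that removes Wnt receptors and is itself a target, read 2.82, 3.27 and 2.65 with vehicle and 1.61, 2.27 and 1.29 with compound 2. Letter B was highest in each group, and the change was -1.19 ± 0.26 (adjusted p = 0.0117). Without compound 2 A, compound 2 C or vehicle B the Rnf43 call was lost (adjusted p up to 0.072). Axin2, the classical feedback inhibitor, read 0.75, 1.10 and 0.51 with vehicle and -0.51, 0.30 and -0.35 with compound 2, a change of -0.97 ± 0.25 (adjusted p = 0.0291). It was well above background on 1 of 3 compound 2 arrays, a second probe that was not well above background gave -0.07, and the call was lost without compound 2 A, compound 2 C, vehicle A or vehicle B (adjusted p up to 0.15). Nkd2, an inhibitor of Dishevelled, and Bmi1, a Polycomb protein, fell, with changes of -0.43 ± 0.09 and -0.50 ± 0.08.

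Other members of the pathway did not pass. Lgr5, the R-spondin receptor that marks crypt base stem cells, read 0.64, 0.23 and 0.69 with vehicle and 0.69, 0.50 and 0.44 with compound 2. The groups overlapped. The change of 0.03 ± 0.53 had an interval of -1.08 to 1.13, wide enough to hold a 2-fold change either way. That SE comes from the fit to the whole series, so it is not the scatter of these 6 arrays alone. Ascl2, a stem cell transcription factor, read 3.13, 3.35 and 3.41 with vehicle and 1.84, 2.73 and 2.41 with compound 2. Its groups did not overlap, and the change of -0.97 ± 0.36 did not pass (adjusted p = 0.143); it did in the fit with a letter block (0.00887). Myc (0.04 ± 0.25), Notum (0.18 ± 0.08) and endogenous Ctnnb1 (0.11 ± 0.06) did not pass either. Smoc2, a matrix protein of the same stem cell list, rose: 0.95, 1.03 and 1.14 with vehicle, 2.71, 3.24 and 2.37 with compound 2. Despite that gap its adjusted p was 0.0385 for 1.74 ± 0.47, with the SE again from the whole series. The Smoc2 call was lost without any 1 of the 6 arrays (adjusted p up to 0.13).

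**Figure D3:**
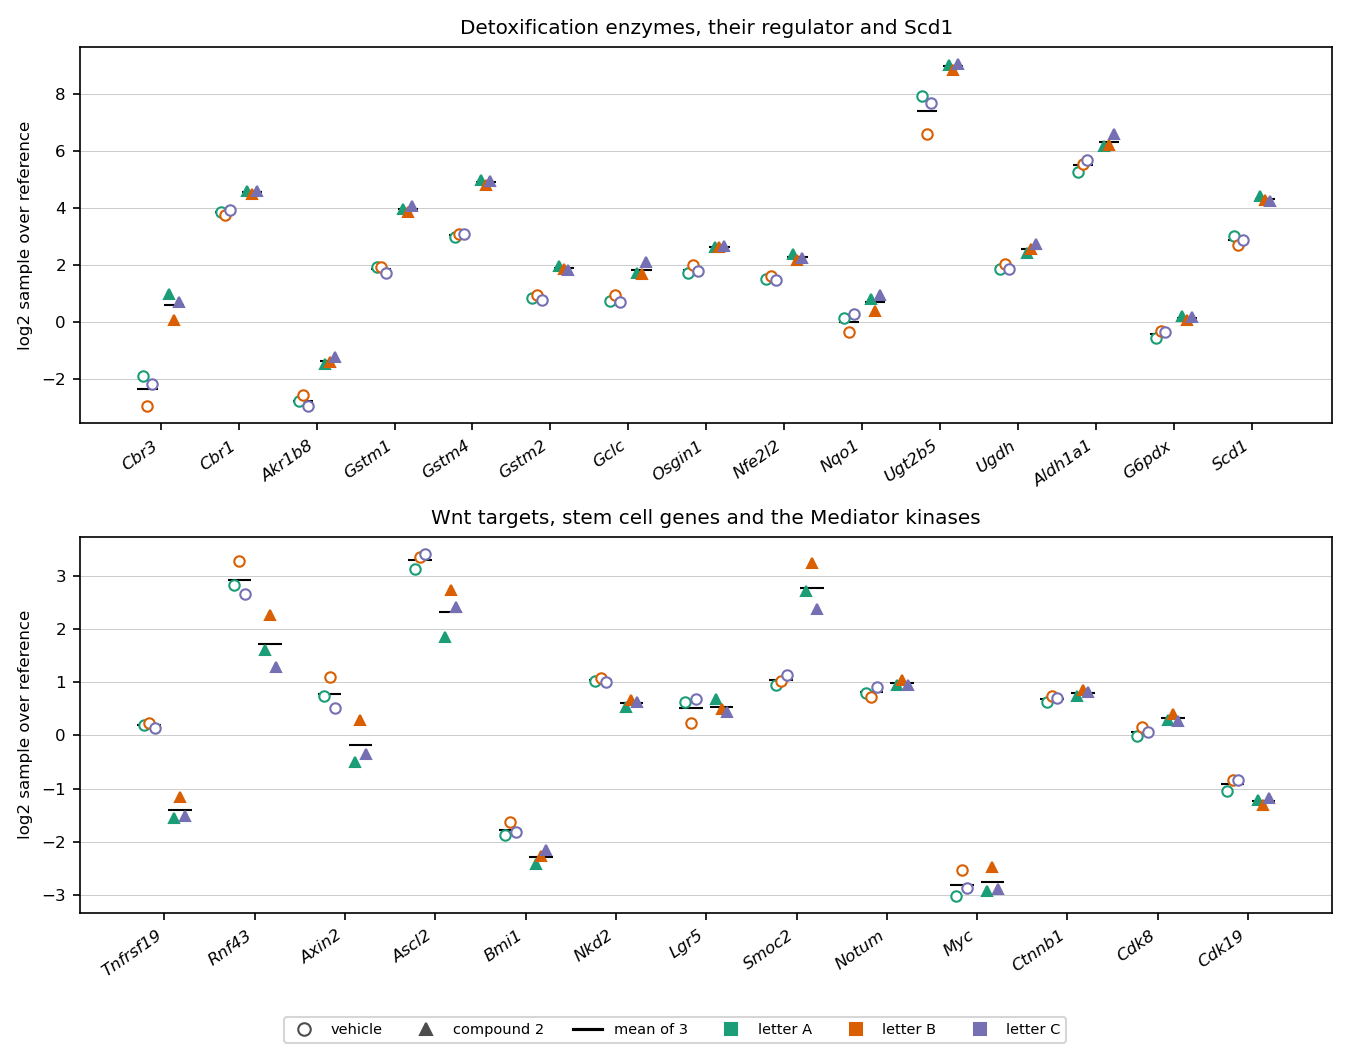
Level on each array, as log2 sample over reference (y axis), of detoxification genes and Scd1 (top) and of Wnt targets, stem cell genes and Mediator kinases (bottom). Open circles are vehicle, triangles compound 2, colours the letters and black lines the mean of 3 arrays; the groups are apart for Tnfrsf19 and Smoc2, in opposite directions, and overlap for Lgr5.

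The letters ATCAAAG of the TCF/LEF site (either strand) stood in the promoters of 5.65% of 301 genes that fell, 2.3% of 434 that rose and 3.19% of all tested, and in 3.73% of all promoters of the table. These are 17 and 10 genes, and the shares were not tested. Of the 24 genes with the largest changes, Lect2 and Tnfrsf19 hold the letters, Lect2 at 32 bases before its start (chr13:56548539-56548788, minus strand, GRCm38.p6, RefSeq) and Tnfrsf19 at 202 bases before the second of its 2 starts (chr14:61037988-61038237, minus strand). The match is in capitals.
Lect2: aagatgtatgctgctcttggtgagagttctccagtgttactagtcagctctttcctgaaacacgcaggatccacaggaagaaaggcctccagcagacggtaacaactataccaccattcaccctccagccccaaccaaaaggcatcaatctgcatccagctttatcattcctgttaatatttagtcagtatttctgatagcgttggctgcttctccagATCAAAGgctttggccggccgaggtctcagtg
Tnfrsf19: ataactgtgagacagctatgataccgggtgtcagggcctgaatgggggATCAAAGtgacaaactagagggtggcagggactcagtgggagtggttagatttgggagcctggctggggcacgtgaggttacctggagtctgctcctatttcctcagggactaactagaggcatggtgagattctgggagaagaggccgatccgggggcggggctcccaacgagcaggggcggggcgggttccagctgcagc
Lect2, a secreted chemotactic protein, fell most of all passing genes with a plain symbol. It read 2.72, 2.50 and 2.49 with vehicle and 0.52, 1.78 and 0.31 with compound 2, and letter B moved least. The change was -1.70 ± 0.36 (adjusted p = 0.00865), and the call was lost without compound 2 A or C (adjusted p up to 0.057).

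The other large fallers have no common list. Kcnq1, a potassium channel of the basolateral membrane, read 5.02, 5.29 and 5.02 with vehicle and 3.48, 4.21 and 3.03 with compound 2, a change of -1.54 ± 0.30, and a second probe gave -1.40. Sort1, a sorting receptor of the Golgi, read 3.37, 2.99 and 3.19 with vehicle and 1.94, 1.90 and 2.00 with compound 2, a change of -1.24 ± 0.12, though its other probes gave -0.69 and -0.04. Tmem53, a membrane protein of the nuclear envelope, had closely spaced arrays, at 0.49, 0.59 and 0.56 with vehicle and -0.71, -0.50 and -0.68 with compound 2. It fell by 1.18 on the log2 scale with an SE of 0.08 (adjusted p = 1.28e-07). C2, complement component 2, read 1.31, 1.77 and 1.32 with vehicle and 0.10, 0.82 and -0.19 with compound 2, a change of -1.22 ± 0.22, which turned to 0.27 without the set term. Tfpi2, a protease inhibitor, fell (-1.17 ± 0.24) but gave 1.52, not passing, in the series matrix. Zfp503 (-1.41 ± 0.24), Svop (-1.33 ± 0.22) and Radx (-1.21 ± 0.22) fell in all letters, which was a condition of their choice. Radx lost its call in 2 of 20 alternative runs, where its change was as small as -0.06. A second Zfp503 probe gave -0.57 and did not pass.

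The growth lists moved little. For the counts of this paragraph, 3.24% of all genes rose and 1.97% fell, and 9.3% and 7.89% did with the letter as a block. Mcm6, a subunit of the replicative helicase, read -2.87, -3.10 and -2.85 with vehicle and -1.14, -1.44 and -0.83 with compound 2, a rise of 1.80 ± 0.41 (adjusted p = 0.0146). The other helicase subunits, named after their values were seen, did not pass, at 0.10 for Mcm2, 0.16 for Mcm3, 0.02 for Mcm4, 0.12 for Mcm5 and 0.06 for Mcm7. Pcna, the sliding clamp, rose by 0.60 ± 0.15, and these were the 2 risers of 24 cell cycle genes, with a median of 0.06 that was 0.02 with Agilent's log ratio and turned to -0.02 with Cy3 alone. The Mcm6 call was lost without compound 2 A, compound 2 C or vehicle B (adjusted p up to 0.069), and the Pcna call without any 1 array but compound 2 A (up to 0.082). Odc1, the polyamine synthesis enzyme and a Myc target, was the 1 of 24 genes of Myc and ribosome biogenesis that passed, and it fell, with a change of -0.72 ± 0.13 (adjusted p = 0.00345). Gadd45a was the 1 riser of 18 p53 targets (0.23 ± 0.06), a call lost without compound 2 A, compound 2 B, vehicle A or vehicle C (adjusted p up to 0.18). None of 18 Bcl2 family genes, 17 immediate early genes or 19 genes of the unfolded protein and amino acid stress response passed, where 1, 5 and 4 rose with the letter as a block and 1 of each fell.

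For the counts of this paragraph, 3.24% of all genes rose, and 9.3% with the letter as a block. Of 17 goblet cell genes 3 rose, and 8 with the block, with a median of 0.28 and 16 of 17 above 0. They were Gfi1 (0.81 ± 0.15) and Spdef (0.61 ± 0.17), both transcription factors of the secretory lineage, and Sytl2, a granule protein (0.58 ± 0.16). The Gfi1 call held without any 1 array, while those of Spdef and Sytl2 were lost without each of the 6 in turn (adjusted p up to 0.19 and 0.15). Of 30 enterocyte genes 2 rose, Vil1 (0.35 ± 0.10) and Apoc3 (0.35 ± 0.09), and 8 with the block, with a median of 0.21 that was 0.05 with Cy3 alone. Vil1 encodes the microvillus protein villin and Apoc3 a lipoprotein component; both signs turned with Cy3 alone (-0.21 and -0.51). The Vil1 call was lost without any 1 array but vehicle B (adjusted p up to 0.21), and the Apoc3 call without any but compound 2 A or vehicle B (up to 0.14). Of 12 Paneth cell genes 1 rose, Nupr1 (0.96 ± 0.16), a stress protein that also belongs to other cell types. None of 22 enteroendocrine, 14 tuft or 12 leukocyte genes passed. Ly6a, a marker of fetal-like and regenerating epithelium, read -3.00, -3.52 and -3.20 with vehicle and -1.93, -2.47 and -1.97 with compound 2, the 1 riser of 14 in its list (1.12 ± 0.15). Among markers of cells that crypt preparations can carry along, 1 of 10 fibroblast genes (Col1a1, 0.44 ± 0.08, from a level of -6.94 to -6.50) and 1 of 5 endothelial genes (Tek, 0.33 ± 0.08) rose. The Tek call was lost without any 1 array but compound 2 B (adjusted p up to 0.14).

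A set of probes was well above background in only 1 group. On all compound 2 arrays and no vehicle array this held for 73 genes, of which 15 passed, and the other way round for 26, of which none passed, beside 5.21% of all genes. The choice by detection fixes the direction, so these counts describe the genes and support nothing. Igfbp5, a binding protein of insulin-like growth factors, had a bound of at least 1.66-fold, Lrit1 of at least 1.57-fold and Krt78, a keratin, of at least 1.53-fold.

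Several risers lie side by side in the genome. Of 493 genes that rose and had a probe position (mm9), 97 had another riser within 100 kb, and of the genes within 100 kb of a riser 8.10% rose, against 3.72% of all 13252 genes placed. Of 333 fallers 58 had a falling neighbour, and the shares were 4.95% and 2.51%. The neighbours among risers include Cbr1 and Cbr3, Saa1 and Saa2, Gstm2 and Gstm4, Akr1c12 and Akr1c13, Scd1 and Scd2, and Ugt2b5 and Ugt2b36. These are members of shared families. Other neighbouring risers, such as Opn3 and Chml, are not. All were picked after their values were seen.

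Compound 9, a close analogue per the labels, was given at the same dose for the same time in letters A to C, so it can be set directly against compound 2. Of the 2 compound pairs compared, this one gave 1021 passing genes (4.75%), 701 higher (3.26%) and 320 lower (1.49%) with compound 2, and 3394 with the letter as a block. Both compounds share the vehicle arrays, so their changes against vehicle stand side by side as values. Cbr3 changed by 2.93 with compound 2 and 0.11 with compound 9, and the compounds differed by 2.83 ± 0.34. Gstm1 changed by 2.11 and 0.72, and the difference of 1.40 ± 0.15 also passed. The same held for Gstm4 (1.84 and 0.58), Scd1 (1.44 and 0.36) and Tnfrsf19 (-1.59 and -0.09). Cyp2c55 did not differ detectably, at 1.53 and 1.15, with a difference of 0.38 and an interval of -0.12 to 0.87 (adjusted p = 0.475). Cyp3a41b did not either, with a difference of 0.85 and an interval of -0.07 to 1.78 (adjusted p = 0.344), but passed with the block. An interval this wide does not show that the compounds act alike. Against vehicle the compound 9 change of Cyp2c55 did not pass (limma adjusted p = 0.789). Without the set term this pair gave 226, and without compound 2 A 493.

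Compound 6, another analogue, had the same dose and time but letters D to G, and so its comparison with compound 2 runs through each compound's own vehicle arrays. It gave 122 passing genes (0.568%), 48 higher (0.223%) and 74 lower (0.344%) with compound 2, and 1982 with the letter as a block. Leaving out compound 2 A or B gave 46 genes and leaving out compound 6 G gave 488. Compound and letter set differ together, and their parts cannot be told apart. For Cbr3 the changes against vehicle were 2.93 and 3.35, for Gstm1 2.11 and 1.79, for Tnfrsf19 -1.59 and -1.51 and for Rnf43 -1.19 and -1.13. The Cbr3 difference of -0.42 had an interval of -1.36 to 0.51, and that of Tnfrsf19, -0.08, one of -0.71 to 0.56. Lgr5 changed by 0.03 with compound 2 and -2.16 with compound 6, a difference of 2.18 ± 0.70 that passed only with the block (adjusted p = 0.14 without it and 0.031 with it). Mcm6, with 1.80 against -0.01, C2, with -1.22 against -0.12, and Smoc2, with 1.74 against -0.45, also stood apart between the compounds, but these differences passed only with the block (adjusted p = 0.122, 0.0917 and 0.108 without it). Vehicle F lay far below vehicle D, E and G for Mcm6 (-4.14 beside -1.78, -1.74 and -1.83) and Smoc2 (-0.87 beside 1.39, 1.55 and 1.20). In both genes compound 6 lay below vehicle in letters D, E and G and above it in F, so these compound 6 changes depend on that array.

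**Figure D4:**
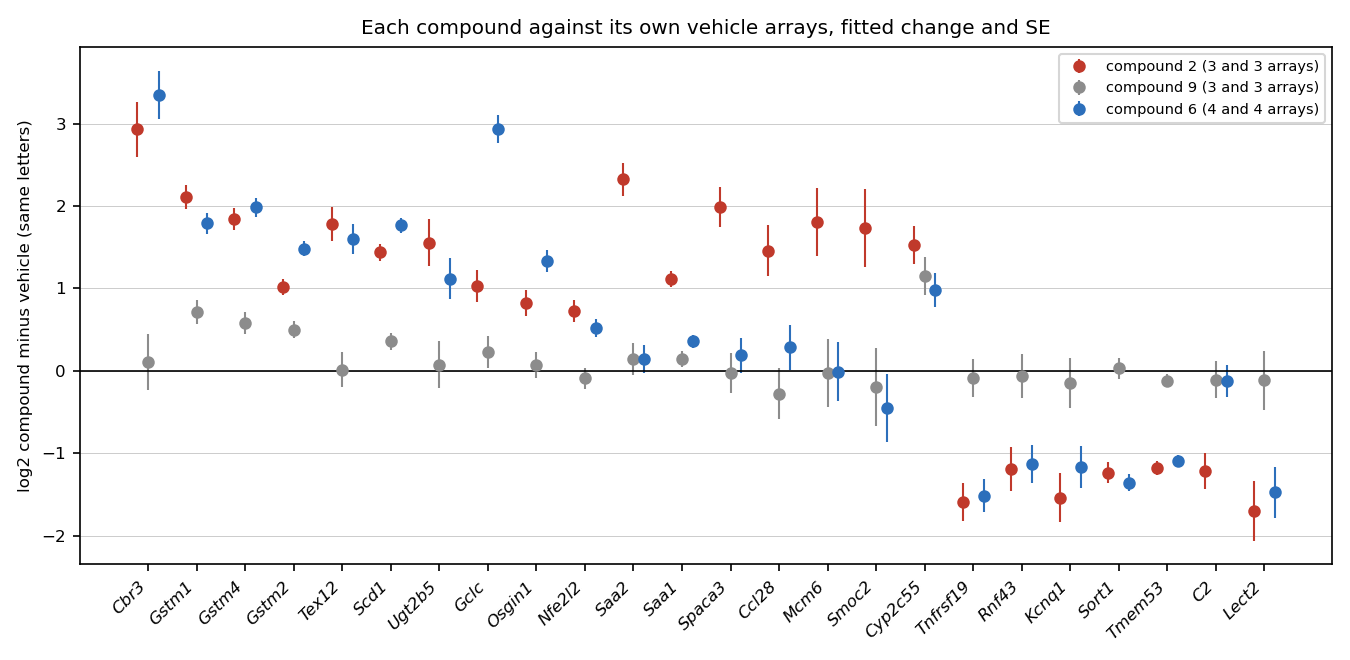
Fitted log2 change ± SE (y axis) of each compound against the vehicle arrays with its own letters, for named genes (x axis): compound 2 (red) and compound 9 (grey) in letters A to C, compound 6 (blue) in letters D to G. Compound 9 lies near 0 for most of these genes, which were chosen on compound 2. All 3 compounds lie above 0.9 for Cyp2c55, where the compound 9 change did not pass.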

How the data were processed

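Per the file headers, the arrays were quantified with Agilent Feature Extraction 10.7.3.1, with probe positions on mm9. The deposited files give spot intensities of both channels and, per the file headers, a log10 ratio of reference over sample. The series matrix, also deposited, gives sample over reference as log2, made with a tool not given in the sources used here.

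Of 62976 spots 3671 were controls. With limma 3.58.1 in R 4.3.3, intensities were corrected with normexp (offset 50) and loess-normalised within arrays to log2 sample over reference. Of 55681 probes 29628, well above background on at least 3 arrays, stayed in, and the brightest probe stood for each of 21487 genes. Among genes that passed against vehicle 336 had other probes that stayed in, 449 in all. Of these probes 389 had the same sign as the brightest, but only 137 also passed, and 1 passed with the opposite sign. A model of group and letter set (A to C, D to G) was fitted to all 21 arrays, with Benjamini-Hochberg adjustment.

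Letters pair the samples: deviations from the group means correlated at 0.528, 0.642 and 0.410 between compound 2 and vehicle arrays of letters A, B and C (0.220 at most across letters). Fits with the letter as a block are given where they change a call.

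Members and gene lists were chosen with earlier results of these data known. Named genes are the 12 largest rises and falls with a plain symbol and the same sign in each letter, the 6 with the lowest p each way, up to 4 passing members per list by p, Mediator and Wnt genes, and passing genes detected in 1 group; others are marked. Motifs were searched in Python. The code was tested on simulated data.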

Additional observations from a re-analysis of the deposited data

Results flagged for a closer look

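For 5 named genes the change with compound 2 differed from that with compound 6 in limma's test of the difference itself. Compound and letter set differ together here. Saa2 was higher with compound 2 by 2.18 ± 0.26 (adjusted p = 0.000805); it lay at -0.53 to 0.20 on the vehicle and compound 6 arrays of letters D to G. Since the probe was not well above background on the vehicle arrays of letters A to C, that size is measured against background and is no exact fold. Spaca3, a sperm acrosome protein gene, differed by 1.79 ± 0.32 (adjusted p = 0.0142), and Saa1 by 0.75 ± 0.13 (adjusted p = 0.00911). Pgd rose by less with compound 2 than with compound 6, a difference of -0.65 ± 0.09, and Gclc likewise, with -1.91 ± 0.26 (adjusted p = 0.00172 for each). Gclc stood at 4.02 to 4.75 on the 4 compound 6 arrays and at 1.04 to 1.88 on their vehicle arrays, without overlap.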

How the results depend on the processing

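The count of 1120 genes between compound 2 and vehicle was 3694 with the letter replicate block, 3622 without the set term, 649 with only the 6 arrays, 2278 without letter F (an alternative chosen after seeing the data) and 21 with the slide of letters A and B, and 539 to 878 when 1 array was left out. Agilent's log ratio, the series matrix, no filter and 6 further settings gave 769 to 1134. Against compound 9 the count of 1021 was 3394 with the replicate block, 226 without the set term and 493 to 815 without 1 array. Against compound 6 the count of 122 was 1982 with the block, 9123 without the set term, 36 with Agilent's log ratio, 55 with the series matrix and 46 to 488 without 1 array. The causes were not tested. The block changed no call of the 86 named genes that passed.

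Signs turned without the set term for C2 (0.27), Vil1 (-0.0023), Acsl4 (-0.14) and Nqo1 (-0.35), with Agilent's log ratio for Cyp2b9 (-0.048), Apoc3 (-0.019) and Ugt2b5 (-0.14), in the series matrix for Tfpi2 (1.52), Cyp2b9 (-0.017) and Ugt2b5 (-0.12), and with Cy3 alone for Apoc3 (-0.51) and Vil1 (-0.21). Of the 86, 57 kept their call with Agilent's log ratio, 53 in the series matrix, 59 with only the 6 arrays, 11 on the slide of letters A and B, and 56 without each of the 6 arrays in turn. Probes near background limit low genes such as Axin2.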

Other observations

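Some genes of traffic between the endoplasmic reticulum and the Golgi rose with compound 2. These families were chosen after their values were seen, so the counts describe them and test nothing. For the counts of this section, 3.24% of all genes rose and 1.97% fell, and with the letter as a block 9.3% rose and 7.89% fell. Of 9 subunits of the COPI coat, which carries vesicles back to the endoplasmic reticulum, 5 rose and none fell, with Copb2 at 0.56, Copa at 0.45, Copg1 at 0.38, Cope at 0.31 and Copz1 at 0.27. Of 13 SNAREs and their partners at this step 6 rose, with a median of 0.41 and Bet1 at 0.84. Of 12 genes of the COPII coat and exit sites 3 rose (median 0.30), and 8 with the letter as a block. Of 3 KDEL receptors, which return escaped chaperones, 1 rose, Kdelr3 (1.24), and the median was 0.18. Of 10 protein disulfide isomerases 3 rose, with a median of 0.20 and Pdia5 highest at 1.22. Of 10 p24 cargo receptors of the same step 1 rose and 5 lay below 0, with a median of 0.04. The tethering complex TRAPP did not move that way, with none of 14 higher, 1 lower and a median of -0.12.

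Mitochondrial genes lay on the other side of 0 by a small amount. Of 78 mitochondrial ribosomal protein genes 5 fell and none rose, 9 lay above 0 and the median was -0.16, and with the letter as a block 24 fell and 1 rose. Of 37 complex I subunits 1 fell, 2 lay above 0 and the median was -0.18 (-0.30 with Agilent's log ratio), with 19 fallers and 1 riser with the block. The medians of these families and of the coats kept their sign with Agilent's log ratio, the series matrix, no background correction and Cy3 alone. Cytosolic ribosomal protein genes had a median of -0.14 and none of 80 passed. That median was 0.04 in letter C alone and -0.42 with Agilent's log ratio. Of 15 carboxylesterases 3 rose, with a median of 0.53, which was 0.23 with Agilent's log ratio and 0.15 in the series matrix. Of 15 complement genes 3 fell, with a median of -0.08, or -0.37 and -0.39 under those 2 alternatives.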
